A study of Mus musculus with 2 samples.

Results

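The interleukin-1 (IL-1) family genes were measured by RNA sequencing in 2 libraries from C57BL/6 mouse gonadal fat, 1 from sham-irradiated mice and 1 from mice given pelvic irradiation. The genes were chosen by name as 10 ligands, inhibitors, and receptors of the family, and all 10 were found among the 24091 genes of the table. Irradiated mice received 7.5 Gy over a course of 5 days, and the labels do not state whether the dose was daily or in total. Their fat was taken 2 months later and dissociated with collagenase, and the cells that floated, labelled as primary adipocytes, spent 3 days in culture. Both sample titles also carry PBS, with no statement of what it was for. The number, sex, and age of the mice behind each library were not stated, and with 1 library per condition no difference has a replicate check.

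The IL-1 family carries early alarm signals of tissue injury. IL-1α and IL-1β bind the same receptor, IL1R1, which recruits the accessory chain IL1RAP and signals through MyD88 to NF-κB. IL-33 uses ST2, the product of Il1rl1, with the same accessory chain, and IL-18 uses a receptor pair of its own. IL1RN blocks IL1R1 without signalling, IL1R2 is a decoy without a signalling domain, and IL18BP neutralises IL-18. In fat, IL-1 is known for inflammatory signalling to stromal cells and adipocytes, and IL-33 for its action on ST2-bearing regulatory T cells, innate lymphoid cells, and mast cells.

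Depth was 30600000 fragments in the sham library and 35000000 in the irradiated library, recovered from the values themselves. Of the 10 mature adipocyte markers, 7 were below 1 fragment per kilobase of gene per 1000000 fragments (FPKM) in both libraries, among them Adipoq, the adiponectin gene, at 0.133 and 0.232. The other 3 were Fabp4, at 96.9 in both, Pnpla2, at 5.11 and 5.76, and Pparg, at 4.59 and 4.69. All 10 fibroblast and progenitor markers and all 12 macrophage markers reached FPKM 1 in at least 1 library. Levels below are therefore those of a mixed culture, in which fewer cells of a type and less RNA per cell cannot be told apart.

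None of the 10 genes differed between the libraries by 1 or more on the log2 scale, as 1.16% of the 11253 genes kept did. Kept are genes that reached FPKM 1 in either library. Il1rl1 was 1.38-fold higher in the irradiated library, Il1r1 was 19.4% lower, and Il1rap was 10.01% lower. Their counting intervals excluded 0, and those of the other 7 genes held 0. Of all genes kept, 23.8% had an interval above 0 and 17.4% an interval below. The most abundant family transcript in both libraries was the signalling receptor Il1r1, whereas Il1b, with 22 fragments in each, was the least abundant of the 10.

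The 250 bases before the annotated start are shown for 4 genes in pairs from the same gene cluster whose values contrast. Il1a and Il1b lie side by side on chromosome 2 and differed in level by 14.0-fold in the sham library. Il1r1 and Il1rl1 belong to 1 receptor cluster on chromosome 1 and differed in opposite directions between the libraries. Both receptor genes are shown for each of their 2 start sites, because the deposited value is given per gene and does not separate them. The sequences are from RefSeq (GRCm38.p6, the assembly of mm10), 5′ to 3′ toward the gene. Capitals mark matches on either strand to TGANTCA (AP-1), TTGCNNAA (C/EBP), TATAAA, or GGANTTTCC (NF-κB), and no 2 matches overlapped in these windows.
Il1a, chr2:129309973-129310222, minus strand: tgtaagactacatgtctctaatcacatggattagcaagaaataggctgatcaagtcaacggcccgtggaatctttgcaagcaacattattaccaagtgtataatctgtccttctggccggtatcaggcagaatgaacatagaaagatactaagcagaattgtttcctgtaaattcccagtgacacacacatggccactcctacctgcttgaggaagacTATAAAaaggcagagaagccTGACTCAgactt
Il1b, chr2:129371140-129371389, minus strand: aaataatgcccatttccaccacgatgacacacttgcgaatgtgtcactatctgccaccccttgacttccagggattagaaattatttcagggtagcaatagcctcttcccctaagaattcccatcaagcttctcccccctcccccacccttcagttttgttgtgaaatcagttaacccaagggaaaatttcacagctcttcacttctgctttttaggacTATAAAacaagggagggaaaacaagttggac
Il1r1, first start site, chr1:40224830-40225079, plus strand: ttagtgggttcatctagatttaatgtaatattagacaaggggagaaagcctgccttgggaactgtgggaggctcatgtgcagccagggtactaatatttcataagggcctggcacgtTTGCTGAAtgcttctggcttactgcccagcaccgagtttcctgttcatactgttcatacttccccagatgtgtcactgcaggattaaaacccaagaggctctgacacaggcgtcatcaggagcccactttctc
Il1r1, second start site, chr1:40266336-40266585, plus strand: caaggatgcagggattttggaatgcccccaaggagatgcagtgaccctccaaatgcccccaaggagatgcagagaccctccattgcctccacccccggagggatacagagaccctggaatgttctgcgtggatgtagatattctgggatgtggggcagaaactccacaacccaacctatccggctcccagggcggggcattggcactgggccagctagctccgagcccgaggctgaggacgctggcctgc
Il1rl1, first start site, chr1:40429320-40429569, plus strand: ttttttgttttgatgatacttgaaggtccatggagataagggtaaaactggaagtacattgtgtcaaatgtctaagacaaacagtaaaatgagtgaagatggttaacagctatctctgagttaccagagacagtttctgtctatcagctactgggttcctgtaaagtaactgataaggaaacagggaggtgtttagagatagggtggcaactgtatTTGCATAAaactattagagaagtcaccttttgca
Il1rl1, second start site, chr1:40439379-40439628, plus strand: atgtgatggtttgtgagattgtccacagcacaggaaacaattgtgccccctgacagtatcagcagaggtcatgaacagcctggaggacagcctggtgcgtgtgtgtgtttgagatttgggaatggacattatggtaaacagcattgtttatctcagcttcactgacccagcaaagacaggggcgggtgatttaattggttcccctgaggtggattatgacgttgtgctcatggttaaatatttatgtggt

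Il1a and Il1b both held TATAAA, starting 32 and 31 bases before the start, and Il1a also held an AP-1 match 12 bases before it. The first start sites of Il1r1 and Il1rl1 each held a C/EBP match, 133 and 34 bases upstream, and the second site of each held none of the motifs. Of all 32851 RefSeq windows of this length, 12.4% held TATAAA, 6.75% the AP-1 motif, 9.56% the C/EBP motif, and 1.07% the NF-κB motif. The 10 genes had 15 windows, of which 5 held TATAAA, 2 AP-1, 4 C/EBP, and 0 NF-κB. The NF-κB letters are a strict form. A looser form, GGG and CC parted by any 5 bases, was searched first and replaced after its matches were seen, and it was held by 4 of the 15 windows and by 45.8% of all windows. A match is a description of the letters, and nothing about binding was measured.

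Il1a, which encodes a cytokine that is active in its uncut form and is released by damaged cells, lies on chromosome 2 from 129299610 to 129309972. Its level was FPKM 2.67 in the sham library (95% counting interval 2.27 to 3.11) and 3.00 in the irradiated library (2.60 to 3.42), on 162 and 208 fragments. The intervals overlapped, and the difference was 0.16 with a ratio interval of -0.14 to 0.47. Il1b, which encodes a cytokine whose precursor is cut by caspase-1, lies on the same chromosome from 129364578 to 129371139. It had 22 fragments in each library, FPKM 0.191 (0.1204 to 0.291) and 0.168 (0.105 to 0.254). Its ratio interval ran from -1.12 to 0.73, so no difference was detectable at this depth. Il1a exceeded Il1b in FPKM by 14.0-fold (8.92 to 22.9) in the sham library and by 17.8-fold (11.5 to 29.1) in the irradiated library. These intervals overlapped as well.

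Il33 encodes a nuclear cytokine that stromal and barrier cells release on injury, and it lies on chromosome 19 from 29925114 to 29960715. It was the most abundant of the 4 ligands in both libraries, at FPKM 8.84 (8.20 to 9.52) without radiation and 9.48 (8.86 to 10.1) with it. The difference was 0.10, with a ratio interval of -0.04 to 0.25. Il18, on chromosome 9 from 50554857 to 50581837, encodes a caspase-1 substrate best known for raising interferon gamma. It had FPKM 2.47 (1.94 to 3.10) and 2.48 (1.98 to 3.07), the closest pair of values in the family. Its difference of 0.01 turned to -0.01 when differences were centred on the median of all genes, and its ratio interval ran from -0.46 to 0.47.

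Il1rn, the receptor antagonist gene on chromosome 2 from 24336860 to 24351491, was the second most abundant member. Its level was FPKM 12.8 (12.04 to 13.6) in the sham library and 12.3 (11.6 to 13.0) in the irradiated library, a difference of -0.06 with a ratio interval of -0.18 to 0.06. The FPKM of Il1rn was 4.48 times the sum of Il1a and Il1b in the sham library (3.82 to 5.26) and 3.88 times in the irradiated library (3.37 to 4.49). Transcripts of the antagonist thus exceeded those of both agonists in each library, and the intervals of the ratio overlapped. RefSeq lists 3 start sites for Il1rn, which give secreted and intracellular forms that the deposited value does not separate.

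Il1r2, the decoy receptor gene on chromosome 1 from 40084768 to 40125226, had FPKM 1.37 (1.04 to 1.78) and 1.46 (1.13 to 1.85). The difference was 0.08 and its ratio interval, from -0.45 to 0.62, held 0. Il18bp, on chromosome 7 from 102015077 to 102018690, had FPKM 1.12 (0.909 to 1.37) and 1.04 (0.849 to 1.26). Its difference was -0.10, with a ratio interval of -0.52 to 0.31. The FPKM of Il18bp was 0.455 times that of Il18 in the sham library (0.333 to 0.624) and 0.419 times in the irradiated library (0.311 to 0.565). Unlike the IL-1 antagonist, the IL-18 inhibitor was below its ligand in FPKM in both libraries, whereas in fragments, not corrected for length, the ratio was 1.31 and 1.21.

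**Figure D1:**
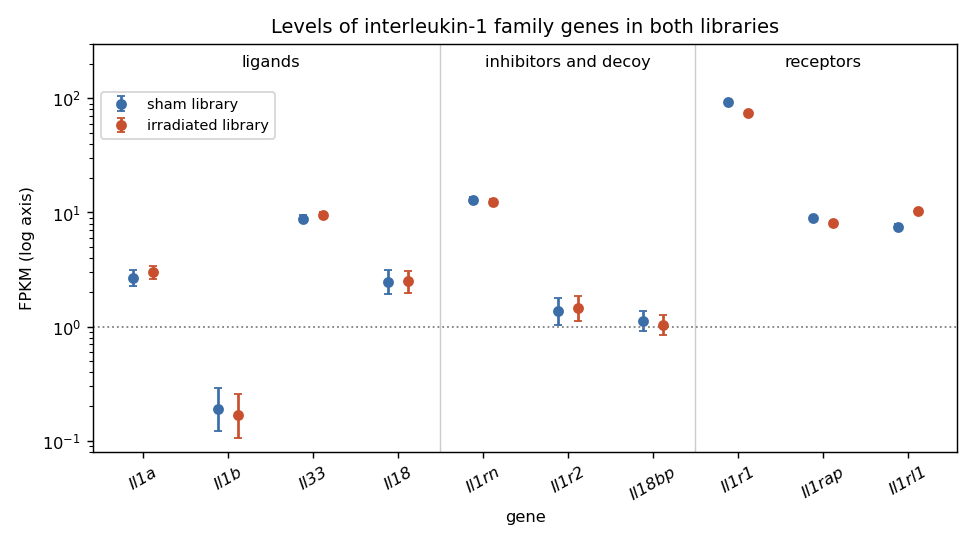
FPKM of the 10 genes in the sham library (blue) and the irradiated library (orange) on a log axis, grouped as ligands, inhibitors with the decoy, and receptors, with bars for the exact 95% Poisson interval of the fragments and a dotted line at FPKM 1. Il1r1 stands highest at 92.3 and 74.4, and Il1b is the single gene under the line in both libraries, at 0.191 and 0.168.

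Il1r1, the signalling receptor of both IL-1 forms, lies on chromosome 1 from 40225080 to 40316177. It had FPKM 92.3 (90.8 to 93.8) on about 14178 fragments in the sham library. In the irradiated library it had 74.4 (73.2 to 75.7) on about 13086. The intervals did not overlap, and the difference was -0.31 with a ratio interval of -0.34 to -0.28. Its level was above that of 95.2% and 93.8% of the genes kept in the respective libraries. The FPKM of the decoy Il1r2 was 0.0149 times that of Il1r1 in the sham library (0.0112 to 0.0193) and 0.0196 times in the irradiated library (0.0152 to 0.0249). The intervals of the ratio overlapped.

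Il1rap, which encodes the accessory chain shared by the IL-1, IL-33, and IL-36 receptors, lies on chromosome 16 from 26581705 to 26725147. Its level was FPKM 9.03 (8.66 to 9.40) in the sham library and 8.12 (7.80 to 8.45) in the irradiated library, and the intervals did not overlap. The difference was -0.15, with a ratio interval of -0.23 to -0.07. Il1r1 exceeded Il1rap by 10.2-fold in the sham library and 9.16-fold in the irradiated library. The accessory chain was the less abundant partner of the pair in both. The FPKM of Il1rap was 0.0978 times that of Il1r1 in the sham library (0.0936 to 0.102). It was 0.109 times in the irradiated library (0.104 to 0.114), and the intervals of the ratio did not overlap.

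Il1rl1, the gene of the IL-33 receptor ST2, lies on chromosome 1 from 40429570 to 40465414. It had FPKM 7.52 (7.16 to 7.89) on 1629 fragments in the sham library and 10.4 (9.99 to 10.8) on 2574 in the irradiated library. The intervals did not overlap, and the difference of 0.46, with a ratio interval of 0.38 to 0.56, was the largest of the 10 genes. The gene makes a membrane-bound and a secreted form, and a gene-level value does not say which of them differed. The FPKM of Il1rl1 relative to its ligand Il33 was 0.851 (0.778 to 0.931) in the sham library and 1.10 (1.01 to 1.18) in the irradiated library, so on this scale the receptor transcript was below the ligand in the former and above it in the latter. In fragments, not corrected for gene length, the ratio was 2.32 and 2.99, above 1 in both.

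Of the 10 family genes, 9 were kept, all but Il1b. A difference of 0.5 or more was seen in 0 of the 9 and in 5.75% of the 11253 genes kept. The ratio interval lay above 0 for 1 of the 9 (Il1rl1) and below 0 for 2 (Il1r1 and Il1rap). Differences were above 0 for 5 of the 9 and below 0 for 4, beside 53.5% and 44% of all genes. The median of the 9 was 0.01, beside 0.02 for all genes kept, and it turned negative under both other scalings and both other filters. A difference at least as large as that of Il1rl1 was seen in 7.01% of the genes kept, and one as large as that of Il1r1 in 14.3%. Of these genes, 95% lay between -0.38 and 0.65.

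**Figure D2:**
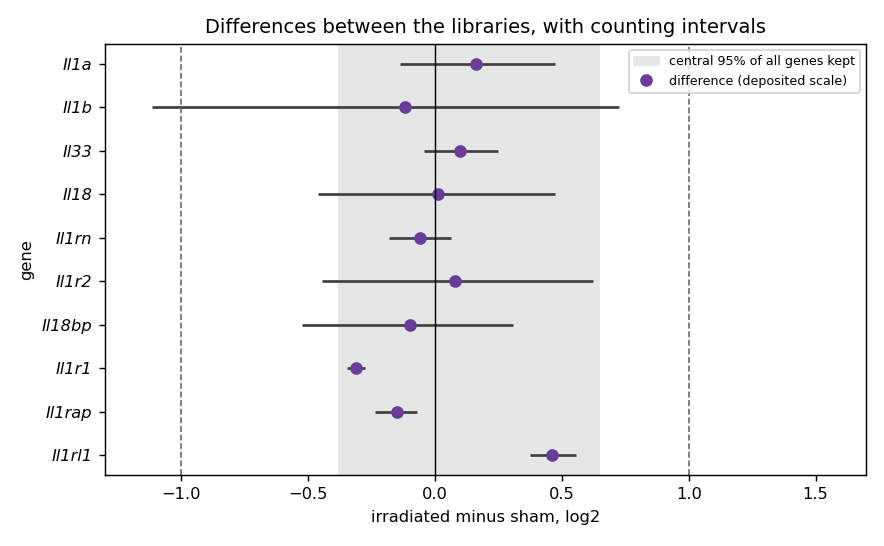
Difference of each gene, irradiated minus sham, on the deposited log2(FPKM + 0.1) scale (points), with the exact 95% counting interval of the fragment ratio (lines), the central 95% of all 11253 genes kept (grey), and dashed lines at the fold counted. All 10 points lie inside the grey band, and the lines of Il1r1, Il1rap, and Il1rl1 do not cross 0.

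In FPKM, the order in the sham library was Il1r1, Il1rn, Il1rap, Il33, Il1rl1, Il1a, Il18, Il1r2, Il18bp, and Il1b. The counting intervals overlapped between the neighbours Il1rap and Il33, Il1a and Il18, and Il1r2 and Il18bp. In the irradiated library Il1rl1 followed Il1rn, ahead of Il33 and then Il1rap, and the intervals of Il1rl1 and Il33 overlapped while that of Il1rap lay below both. The genes from Il1a to Il1b kept their places, with the same overlaps.

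The receptor genes of the family form a cluster of 6 genes on chromosome 1 that spans 467 kb, in the order Il1r2, Il1r1, Il1rl2, Il1rl1, Il18r1, and Il18rap. Levels along it were very unequal. Il1rl2, which encodes the IL-36 receptor, was the second highest of the cluster at FPKM 31.9 and 26.3, with a difference of -0.28 and a ratio interval of -0.37 to -0.19. It thus differed in the same direction as its neighbour Il1r1, while Il1rl1 on its other side differed in the opposite direction. Both IL-18 receptor genes were under FPKM 1, Il18r1 at 0.266 and 0.244 and Il18rap at 0.443 and 0.564, and their ratio intervals held 0.

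The ligand genes of chromosome 2 lie in 2 blocks. In the first, Il1rn stood beside 5 genes of IL-36 and related ligands, listed under their older symbols, that had 0 to 4 fragments each in either library. Il1f5 and Il1f8 had no fragments in both. Of the 11 other family genes found, 10 were under FPKM 1 in both libraries, including the inhibitory receptor gene Sigirr at 0.187 and 0.212.

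**Figure D3:**
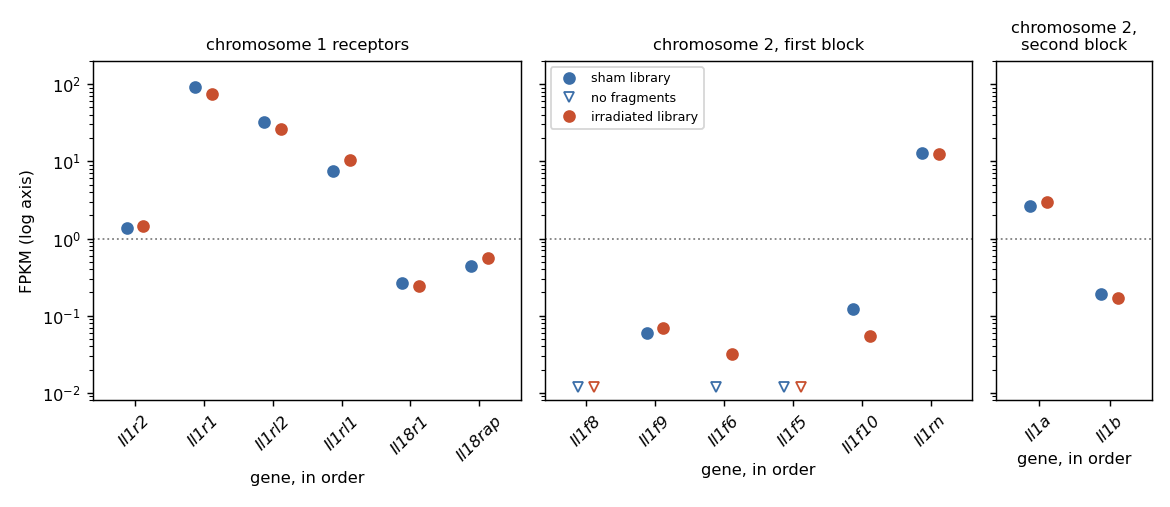
FPKM of the family genes in chromosomal order, on a log axis, for the receptor cluster of chromosome 1 and both blocks of chromosome 2, in the sham (blue) and irradiated (orange) libraries, with open triangles for genes without fragments (drawn at an arbitrary height) and a dotted line at FPKM 1. Il1r1 and Il1rl2 were the highest of the cluster, and Il1rn was the single gene above FPKM 1 in the first block.

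The genes that mature and release the family were given by a list of 12. Of these, 9 were kept and 0 passed a difference of 1, beside 0.791% of all genes kept in the higher and 0.373% in the lower direction. Their median difference was 0.27, and 8 of the 9 had a ratio interval above 0, beside 23.8% of all genes. The intervals of Casp8 and Aim2 began at 0.00034 and 0.0081, which is within the rounding of the deposited values. The largest was Pycard, the inflammasome adaptor, at FPKM 1.54 and 2.18 with a difference of 0.48 (ratio interval 0.14 to 0.88). Casp1, the protease that cuts the IL-1β and IL-18 precursors, had FPKM 6.67 and 8.47, and Capn2, a subunit of the calpain proteases that cut the IL-1α precursor, had 69.9 and 90.4. Nlrp3, the sensor that assembles with Pycard and Casp1, was under FPKM 1 in both libraries, at 0.690 and 0.632. Casp1, Capn2, and Nlrp3 were chosen for mention after their values were seen.

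Signalling genes were all kept, 18 of 18, and 0 passed a difference of 1, beside 1.16% of all genes. Their median was 0.02, the same as that of all genes. The ratio interval lay above 0 for 3 of the 18 and below 0 for 1, beside 23.8% and 17.4% of all genes. It held 0 for the other 14. The largest difference was that of Irak3, which encodes an inhibitory kinase homologue of the receptor complex, at FPKM 15.5 and 10.9, a difference of -0.50 (ratio interval -0.62 to -0.39). Myd88, the adaptor of the receptors, had 21.0 and 20.2, and was chosen after its values were seen.

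Of 24 genes known to be induced by IL-1, 22 were kept. Of these, 1 was higher by at least 1 and 1 was lower by at least 1, beside 0.791% and 0.373% of all genes. Ptgs2, the inducible prostaglandin synthase gene, had FPKM 37.7 in the sham library and 80.3 in the irradiated library, a difference of 1.09 (ratio interval 1.04 to 1.14). Nos2, the inducible nitric oxide synthase gene, had 3.98 and 1.49, a difference of -1.36 (-1.65 to -1.19). Differences were above 0 for 9 genes of the list and below 0 for 12, beside 53.5% and 44% of all genes. The median of the list was -0.10. The ratio interval lay above 0 for 5 and below 0 for 12, beside 23.8% and 17.4% of all genes. At a threshold of 0.5 the list had 3 genes higher and 6 lower, beside 4.31% and 1.44% of all genes. The 3 were Ptgs2, the adhesion molecule gene Icam1, at 8.72 and 12.9, and the matrix protease gene Mmp3, at 31.2 and 45.5. Among the 6 were the neutrophil-attracting chemokine Cxcl5, at 1884 and 1287, and the acute-phase gene Saa3, at 424.5 and 250.6. Icam1, Mmp3, Cxcl5, and Saa3 were chosen after their values were seen. Other signals, such as TNF and bacterial products, are known to induce the same genes. Of 6 listed products that IL-18 or IL-33 raise in lymphoid cells, Gata3 alone was kept, at FPKM 1.30 and 1.12, and Ifng had no fragments in either library.

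**Figure D4:**
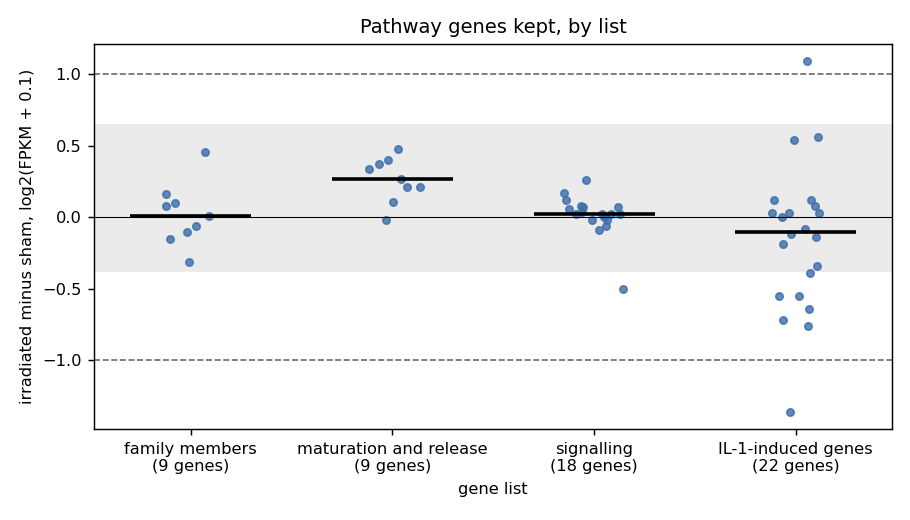
Difference, irradiated minus sham, on the log2(FPKM + 0.1) scale, for the kept genes of the family and of 3 pathway lists (points, spread sideways at random), with the median of each list (black bar), the central 95% of all genes kept (grey), and dashed lines at the fold counted. The medians are 0.01, 0.27, 0.02, and -0.10 from left to right, and Ptgs2 and Nos2 are the points beyond the dashed lines.

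Markers of cells that are known to make or bind the family also differed between the libraries, and their part in the values above was not tested. All 12 macrophage markers were kept and 10 were higher in the irradiated library, beside 53.5% of all genes. Their median was 0.41, and 5 were higher by 0.5 or more, among them C1qa and C1qc at 0.80 and Cd68 at 0.71, beside 4.31% of all genes. The summed FPKM of 617 and 658 was mostly Lyz2, which was lower, at 442.5 and 410.05. Macrophages are a known source of IL-1 and of its antagonist. Neutrophils are known to carry the decoy receptor. Of their 7 markers 2 were kept, S100a8, at FPKM 2.10 and 1.47, and Retnlg, at 1.74 and 2.26. Under FPKM 1 in both libraries, Mpo had 40 and 16 fragments, S100a9 had 5 and 0, and Csf3r had 42 and 69. The ratio intervals of Mpo and S100a9 lay below 0, and that of Csf3r held 0. Ly6g and Cxcr2 had no fragments in both libraries, and the 7 summed to 5.02 and 4.40. Of 6 mast cell markers 5 were kept, and all 5 were lower in the irradiated library, beside 44% of all genes. The 6 summed to FPKM 18.4 in the sham library and 10.4 in the irradiated library. Mast cells are known to carry ST2, the product of Il1rl1, and their part in its level was not tested. Lymphocyte markers were under FPKM 1 in both libraries for 7 of 8, and none was at 0 in both. The marker kept was Il7r, at 4.31 and 6.22, a difference of 0.52 (ratio interval 0.38 to 0.68). Of the 6 mesothelial markers found, 5 had higher values in the irradiated library, beside 53.5% of all genes. The difference was more than 1 for 3 of them, Msln by 2.18, Krt19 by 1.46, and Upk3b by 1.37, beside 0.791% of all genes. These 3 were under FPKM 1 in the sham library, on 34, 35, and 37 fragments. They were kept through the irradiated library alone, so they could enter both counts only as higher genes. Upk1b and Lrrn4, above FPKM 1 in both libraries, were higher by 0.97 and 0.80. With the 3 that could only be higher included, the median of the 6 markers was 1.17. Their sums of 32.9 and 45.3 were mostly Wt1, the marker that was lower, at 20.4 and 18.7. Of the 10 fibroblast and progenitor markers, 7 were lower, beside 44% of all genes, and Dcn, Lum, and Ly6a were higher. Their sums of 4476 and 3576 were mostly 3 collagen genes that were lower. These were Col1a1, at 1937 and 1428, Col3a1, at 873 and 694, and Col1a2, at 771 and 572. The 7 endothelial markers summed to 41.7 and 45.2, with 5 higher, beside 53.5% of all genes. The 10 adipocyte markers summed to 109 and 110.3, and the 4 epithelial markers were all under FPKM 1.

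Genes on the opposite strand overlapped 5 of the members, 6 genes in all. No source states whether the counting used strand, so their fragments may not be separate. The highest of them had FPKM 0.191. This bears on Il1r2, whose partner Gm16894 had 5 fragments in each library beside 56 and 68 on the decoy receptor gene, and on Il18, whose partner Bco2 had 9 and 10 beside 74 and 85. Il1b was overlapped by Il1bos, which had 1 and 0 fragments.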

How the data were processed

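The members and lists were chosen with earlier results of these data known. The authors deposited log2 FPKM values of polyadenylated RNA from a stranded kit, with 0.1 added before the logarithm and 2 decimals kept. The submitters' processing notes name mm10. Aligner, counting tool, and filters: not given in the sources used here. The paper does not describe this RNA sequencing.

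FPKM was 2 raised to the deposited value, minus 0.1. Depth was the total that made FPKM times length whole over genes with few fragments, and all 2570 sham and 2518 irradiated genes checked lay within 0.12 of a whole fragment. A gene of 1 kb without fragments could have an FPKM of up to 0.0981 and 0.0857 (3 fragments). Rounding moves a difference by up to 0.01, and it leaves the fragment counts of abundant genes approximate. The procedure was tested on simulated data.

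Differences are irradiated minus sham on the log2(FPKM + 0.1) scale, which understates those of low genes. Intervals are exact and at 95%, Clopper-Pearson for the fragment ratio (without the added 0.1, and scaled by length for ratios of genes) and Poisson for levels. They cover counting error only, PCR copies not being independent molecules. With 1 library per condition no test was made. Counts used genes reaching FPKM 1 in either library and a difference of 1. Genes named from a list were those past 1, at most 5 each way, or otherwise the largest. Alternatives were log2(FPKM + 1), no filter, FPKM 5, centring, scaling without the 100 most abundant genes, a threshold of 0.5, the mean, and fragment ratios. Overlapping genes spanning over 1 Mb were left out. The deposited 5′ end was a RefSeq start site for 6 of the 10 members. Tools were Python 3.11.15 with numpy 2.4.6, SciPy 1.17.1, pandas 2.3.3, and matplotlib 3.10.9.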

Additional observations from a re-analysis of the deposited data

How the results depend on the processing

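No paired analysis was possible because there was 1 library per condition, so that no replicate could be left out either. None of the 30 recomputed member differences left its counting interval with log2(FPKM + 1), with centring, which subtracts 0.02, or with scaling without the 100 most abundant genes, which shifts all genes by -0.014. Il18 changed sign under both scalings, to -0.01 and -0.0043, and so did the median of the kept members, to the same values, and to -0.025 without a filter and -0.06 with FPKM of at least 5. The number of members past the fold was 0 under every alternative. The median of the other family genes was 0.06 without a filter, where 10 genes under FPKM 1 enter, and -0.28 with it. The median of the IL-18- and IL-33-responsive products turned from -0.20 to 0.11 without a filter, and no gene of that list was left with FPKM of at least 5. With a threshold of 0.5, the count was 1 for signalling genes and 9 for IL-1-induced genes, and with FPKM of at least 5 it was 1 for the latter, because Nos2 was removed. Ratios of fragments, not corrected for gene length, were 5.71 and 5.02 for Il1rn to both agonists in the sham and irradiated libraries, 0.00395 and 0.0052 for Il1r2 to Il1r1, 1.31 and 1.21 for Il18bp to Il18, and 2.32 and 2.99 for Il1rl1 to Il33. Depth limits Il1b most, with 22 fragments in each library.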

Other observations

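Genes of the pathway lists under FPKM 1 in both libraries were not counted, and 2 of them are given here because of their fragments, chosen after their values were seen. Csf2, which encodes the growth factor GM-CSF and is known to be induced by IL-1, had 4 fragments in the sham library and 25 in the irradiated library, FPKM 0.127 and 0.696, with a ratio interval of 0.92 to 4.43. Il1rapl1, a receptor-like gene of the family known from neurons, had 0 and 6 fragments. The floor of 3 fragments per library limits what its absence in the sham library says.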
